A study of Mus musculus with 11 samples.

Results

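The mitochondrial ribosomal proteins are the nuclear-encoded proteins of the ribosome that works inside mitochondria. Members were the rows of the deposited raw count table whose Ensembl identifier maps to a mouse symbol of the form Mrpl or Mrps followed by a number, with 2 pseudogene rows left out. The rule gave 77 of the 15113 genes in the table. Of these, 48 carry a large subunit symbol (Mrpl) and 29 a small subunit symbol (Mrps). All but 1 had enough counts to be tested. The exception was Mrpl23, with 58 counts over all control libraries and 30 over all Drp1 libraries. The rule itself uses symbols and no measured value, though the set was picked for study with earlier results of these data known. Mrpl53, a further large subunit protein, was not analysed here.

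The study compared cultures of C2C12, a mouse myoblast line that fuses into myotubes, in which a short hairpin RNA lowers Drp1, with cultures that carry a random hairpin. Drp1, encoded by Dnm1l, is the GTPase that constricts and divides mitochondria. There were 6 control libraries (random hairpin) and 5 Drp1 libraries (hairpin against Drp1), all labelled as early stage myotubes of passages 2 to 5. RNA was read as 3' tags by QuantSeq, which primes on the poly(A) tail and reads each transcript near its end whatever its length. The labels give no dose, no hairpin sequence and no word on whether a group's libraries are separate cultures. The p-values therefore rest on library-to-library spread that may be technical.

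The mitochondrial ribosome reads the few messages that mitochondrial DNA encodes, all of them for subunits of the respiratory chain and ATP synthase. Its RNAs come from mitochondrial DNA, while every one of its proteins is made in the cytosol and imported. The small subunit binds and decodes the messenger, and the large subunit joins the amino acids and passes the chain through an exit tunnel to the inner membrane. Among the members, 46 were classed as having a counterpart in bacterial ribosomes and 30 as mitochondria-specific. Some of the mitochondria-specific proteins cover surfaces where ribosomal RNA was lost in evolution. In muscle, the supply of respiratory chain subunits during differentiation draws on this machinery.

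Library totals ran from 12277622 to 23082617 counts. Dnm1l stood at 78.6 ± 8.63 CPM (counts per 1000000, after scaling by trimmed means of M values; SD, n = 6) in the control and 18.7 ± 2.58 (n = 5) in the Drp1 libraries, a log2 fold change of -2.07 (SE 0.105, adjusted p = 2.7e-10, edgeR's quasi-likelihood test). Differentiation markers went against the shared label. All 11 differentiated muscle markers fell, their summed level going from 12420 to 13890 CPM in the control to 154 to 215 CPM in the Drp1 libraries. Of the myoblast markers, 2 of 3 fell and Myf5 rose. Smooth muscle markers rose in 3 of 3 (2610 to 3152 against 8130 to 9907 CPM, summed) and fibroblast collagens in 2 of 3 markers (2968 to 3516 against 8769 to 14760 CPM), while none of 5 proliferation markers passed the test (350 to 475.4 against 338.4 to 632.3 CPM). The macrophage markers in the table, with 1 risen and 1 fallen of 3, summed to under 6 CPM in every library, and the adipocyte, osteoblast and endothelial markers in the table to under 1 CPM. What part the lower muscle markers have in any difference below was not tested, and in bulk RNA fewer cells of a type and less RNA per cell cannot be told apart. Control replicate 1 and Drp1 replicate 2 resembled the rest of their group least.

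The mitochondrial ribosomal protein genes moved in both directions, more of them down than up, and by small amounts. Of 76 tested members, 35 fell and 15 rose at an adjusted p under 0.05, and 26 did neither. As shares, 46.1% fell and 19.7% rose. Over all 13025 genes tested, 67.1% passed the same test, 33.3% lower and 33.9% higher in Drp1, so that a called member is nothing unusual by itself: 65.8% of the members passed. The median log2 fold change (Drp1 minus control) was -0.16 for the members and 0.03 for all genes. Only 5 of the 35 that fell did so by 1.5-fold or more (Mrpl13, Mrpl3, Mrps31, Mrpl44 and Mrps22), and 2 of the 15 that rose (Mrps21 and Mrps36, both calls that single libraries decide).

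**Figure D1:**
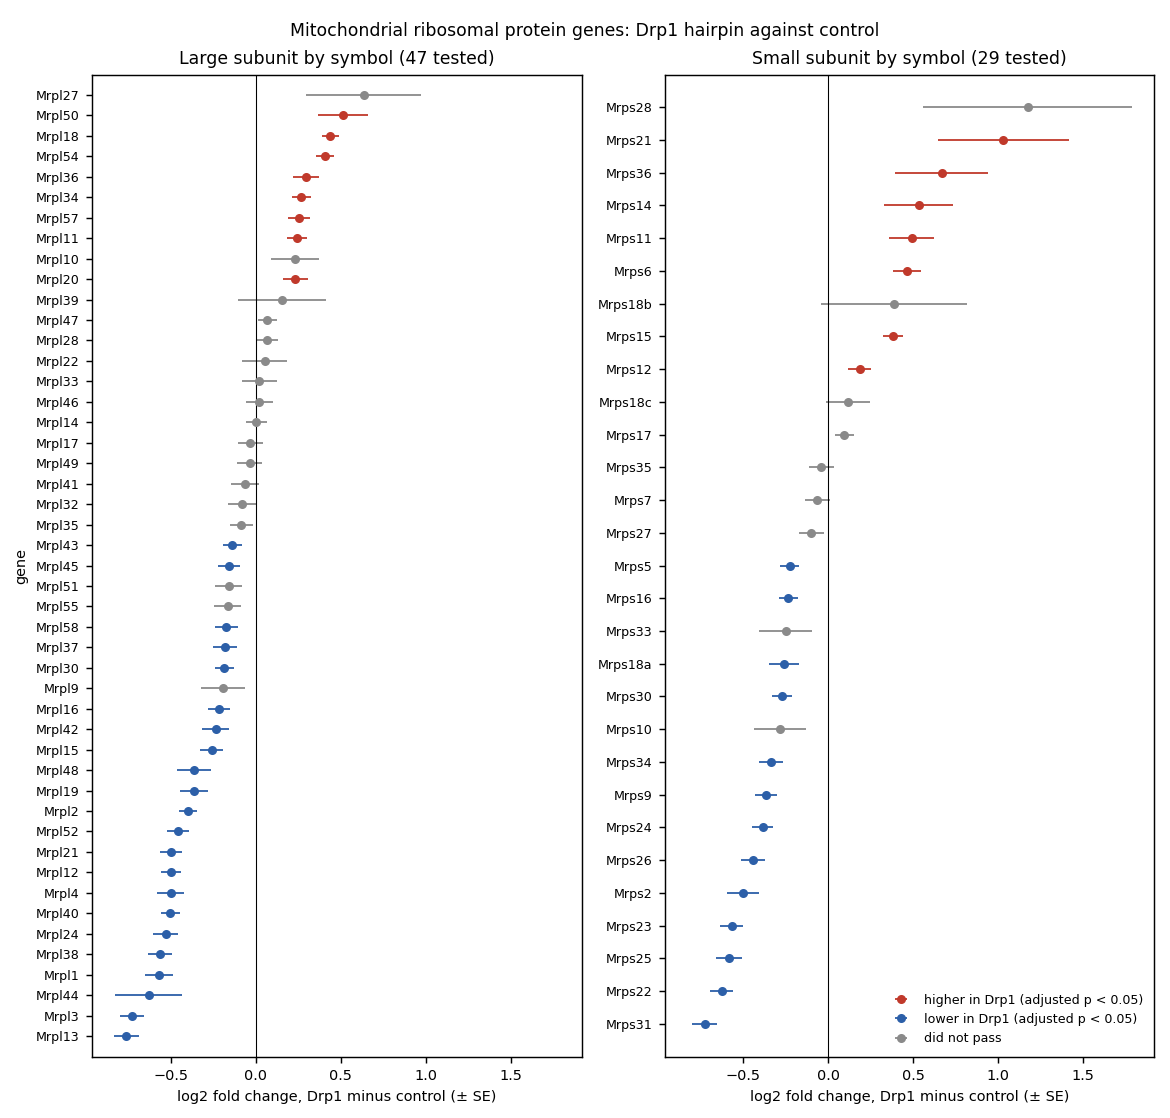
Log2 fold change (Drp1 minus control) of each tested member, large subunit symbols on the left (47) and small subunit symbols on the right (29). Points are the edgeR estimates, bars are ± SE, red rose, blue fell and grey did not pass the test; the values run from -0.76 (Mrpl13) to 1.17 (Mrps28, grey).

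The size of the split depends on how the libraries are scaled. Of the called members, 30.0% were higher with trimmed means of M values, 40.9% with library totals alone (18 higher, 26 lower) and 40.0% with upper-quartile factors (18 higher, 27 lower). These scalings raise the median of all genes by 0.10 and 0.085 on the log2 scale. The members' median lay 0.19 below that of all genes in each of the 3. A change of scaling alone shifts all genes by nearly the same amount, so this gap could not have changed. No member was called in opposite directions by any of the fits tried.

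Groups did not overlap for 35 members (46.1%), 28 of them lower and 7 higher in Drp1, beside 48.9% of all genes tested. Per library, the median deviation of the 72 members with 10 CPM or more from their mean over the control was taken on scaled CPM. It ran from -0.05 to 0.06 on the log2 scale in the control and from -0.20 to -0.12 in the Drp1 libraries. Every Drp1 library lay below every control library on this scaled measure. Scaling factors were 0.950 to 1.00 in the control and 1.01 to 1.06 in the Drp1 libraries. The measure was not taken without scaling, but a factor shifts all genes of its library alike. With the factors taken out, Drp1 replicate 2 (-0.12, factor 1.05) lies above control replicate 4 (-0.048, factor 0.954). The groups therefore overlap without scaling. The small subunit ran from -0.29 to -0.17 and the large from -0.18 to -0.09 in the Drp1 libraries.

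Summed levels were read both with and without that scaling, which decides whether the groups overlap for all members together. In scaled CPM all members summed to 4601 ± 213.9 in the control (SD, n = 6, range 4385 to 4849). In the Drp1 libraries they summed to 4226 ± 103.4 (n = 5, range 4114 to 4348), without overlap. Scaled sums of the large subunit overlapped (3059 to 3459 in the control, 2850 to 3073 in Drp1). Those of the small subunit did not (1304 to 1439 and 1239 to 1275). As a share of each library's raw total, all members together took 0.446 ± 0.0244% of counts in the control (SD, n = 6) and 0.439 ± 0.0186% in the Drp1 libraries (n = 5), with ranges of 0.418 to 0.485% and 0.417 to 0.461% that overlap. Large subunit genes took 0.314 ± 0.0192% and 0.308 ± 0.0155%, and small subunit genes 0.132 ± 0.00535% and 0.131 ± 0.00324%. The ratio of large to small counts was 2.38 ± 0.0617 in the control and 2.35 ± 0.0649 in the Drp1 libraries.

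**Figure D2:**
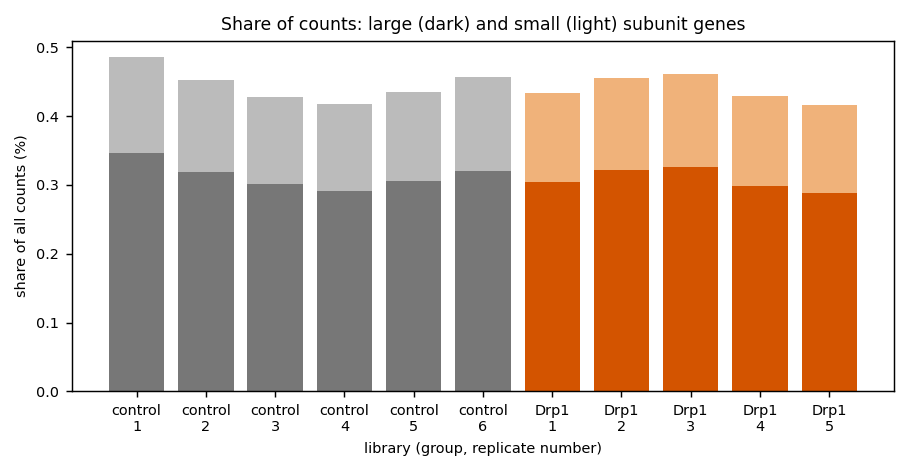
Share of each library's raw total count (%), without further scaling, taken by large (dark) and small (light) subunit genes in each library, control in grey and Drp1 in orange. Total bar heights run from 0.418 to 0.485% in the control and from 0.417 to 0.461% in the Drp1 libraries, and the ranges overlap.

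Promoter sequences are shown first for 4 members that carry a match to the core letters of ETS factors such as GABPA, a class of activators long tied to nuclear genes for mitochondrial proteins. Mrpl3, Mrps22 and Mrpl52 fell and Mrpl34 rose, so the letters are present on both sides of the split. Each line gives the 250 bases before the gene start, 5' to 3' on the gene's strand, from RefSeq on GRCm38.p6, with the match in capitals (CCGGAAG or its reverse complement). RefSeq starts can differ by some bases from the gene bounds given further on, which are those of GENCODE vM21.
Mrpl3 (chr9:105053018-105053267, plus strand): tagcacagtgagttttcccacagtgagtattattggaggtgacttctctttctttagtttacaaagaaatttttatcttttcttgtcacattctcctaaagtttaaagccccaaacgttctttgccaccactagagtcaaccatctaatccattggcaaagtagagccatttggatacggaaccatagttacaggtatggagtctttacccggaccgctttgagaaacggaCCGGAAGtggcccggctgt
Mrps22 (chr9:98601680-98601929, minus strand): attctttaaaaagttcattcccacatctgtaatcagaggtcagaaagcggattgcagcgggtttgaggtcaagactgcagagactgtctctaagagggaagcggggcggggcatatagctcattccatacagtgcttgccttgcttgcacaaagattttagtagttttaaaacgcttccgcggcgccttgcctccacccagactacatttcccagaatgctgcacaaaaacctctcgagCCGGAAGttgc
Mrpl52 (chr14:54426659-54426908, plus strand): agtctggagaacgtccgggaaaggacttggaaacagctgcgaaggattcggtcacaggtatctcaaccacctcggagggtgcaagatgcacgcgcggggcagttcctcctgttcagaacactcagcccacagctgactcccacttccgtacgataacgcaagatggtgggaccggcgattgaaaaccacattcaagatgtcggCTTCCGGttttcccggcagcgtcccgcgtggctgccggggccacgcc
Mrpl34 (chr8:71464676-71464925, plus strand): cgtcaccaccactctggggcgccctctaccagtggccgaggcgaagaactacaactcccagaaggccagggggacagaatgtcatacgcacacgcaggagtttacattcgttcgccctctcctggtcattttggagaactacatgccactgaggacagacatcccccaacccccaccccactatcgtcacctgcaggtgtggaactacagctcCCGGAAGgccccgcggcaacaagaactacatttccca

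Letters of 3 factors were searched on both strands from 250 bases before to 50 after each start. They were CCGGAAG for ETS factors, GCGCATGCG for NRF1 and AAGATGGCG for YY1. These can share letters at their ends, and a member can hold several of them. RefSeq gave 74 such windows for 68 of the members. The ETS letters were in 33.8% of these windows, against 17.3% of the windows of all genes tested and 8.86% of all windows in the table. NRF1 letters were in 9.46% against 3.6% and 1.75%, and YY1 letters in 10.8% against 2.99% and 1.4%. The 25 members with ETS letters held 5 that rose, 11 that fell and 9 that did not pass. The 33 with none of the 3 held 7 that rose, 15 that fell and 10 that did not pass, with Mrpl23 not tested. The 8 with YY1 letters held 2 that rose and 4 that fell. None of the 7 members with NRF1 letters passed in either direction. Among these, Mrps18b had only 51 and 54 counts in all control and Drp1 libraries. The counts per motif stand beside 33.3% lower and 33.9% higher of all genes, and were not tested against them. A match to letters is a description of the sequence and not a binding site.

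Among large subunit genes, Mrpl13 had the lowest log2 fold change and the smallest adjusted p of any member. It encodes a counterpart of a bacterial large subunit protein (ENSMUSG00000022370, chromosome 15, 55534094 to 55557748, minus strand, GRCm38). In the control it ran from 131 to 158.4 CPM with a median of 148.6. The Drp1 libraries, replicates 1 to 5, held 90.8, 95.5, 85.4, 75.6 and 87.3 CPM, all below the lowest control. Mrpl13 fell by 0.76 on the log2 scale (SE 0.071, adjusted p = 2.6e-07).

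Mrpl3 (ENSMUSG00000032563, chromosome 9, 105053239 to 105079888, plus strand) encodes a core protein that reaches towards the peptidyl transferase centre, where peptide bonds form. Control libraries ran from 43.65 to 53.8 CPM with a median of 46.4. The Drp1 libraries held 28.1, 31.9, 27.9, 27.9 and 28.0 CPM, a narrow set well under the control. Mrpl3 fell by 0.73 (SE 0.071, adjusted p = 4.4e-07).

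Mrpl12 encodes the stalk protein that recruits translation factors and lies on chromosome 11, 120484613 to 120489065, plus strand. It ran from 107.5 to 129.9 CPM (median 119.4) in the control and stood at 86.2, 84.2, 85.5, 79.2 and 82.3 CPM in the Drp1 libraries, without overlap. It fell by 0.50 (SE 0.059, adjusted p = 3.2e-06). An exon of Gm16755 lies on the opposite strand at its 3' end, and since the strand setting of the counting is not given in the sources used here, reads of the pair cannot be told apart.

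Both proteins of the next pair sit in the central protuberance, the crest of the large subunit that faces the small one. Mrpl40 (chromosome 16, 18872018 to 18876862, minus strand) ran from 51.2 to 59.2 CPM (median 54.5) in the control and stood at 40.4, 38.3, 38.1, 39.6 and 38.6 CPM in Drp1. Mrpl40 fell by 0.50 (SE 0.058, adjusted p = 2.5e-06). Mrpl38 (chromosome 11, 116131817 to 116138868, minus strand) ran from 37.7 to 43.8 CPM (median 40.0) and stood at 24.7, 27.1, 29.5, 26.1 and 29.9 CPM, and fell by 0.56 (SE 0.07, adjusted p = 5.5e-06). Neither gene's groups overlapped.

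The other 17 large subunit genes that fell had log2 fold changes from -0.63 to -0.14. Mrpl44, which carries a fold for double-stranded RNA, had the lowest of these at -0.63 with a wide SE of 0.197, and its groups overlapped. Mrpl1, Mrpl24, Mrpl4 and Mrpl21, all with bacterial counterparts, fell by 0.57, 0.53, 0.50 and 0.50. Mrpl52, whose promoter is printed above, fell by 0.46, from 263.4 ± 22.7 CPM to 191.6 ± 7.53 CPM. Mrpl58, a peptidyl-tRNA hydrolase built into the ribosome, fell by 0.17 (adjusted p = 0.042). The calls of Mrpl37, Mrpl43, Mrpl45 and Mrpl58, at log2 fold changes of -0.18 to -0.14, were lost on leaving out 1 library in 4 to 7 of 11 cases (adjusted p 0.056 to 0.11). All 4 were also lost with library totals alone, with upper-quartile factors and with a minimum of 10 CPM.

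Of the 8 large subunit genes that rose, Mrpl18 had the smallest adjusted p. Its protein sits in the central protuberance, and the gene lies on chromosome 17, 12911349 to 12916345, minus strand. Control libraries ran from 83.9 to 93.9 CPM with a median of 89.4. The Drp1 libraries held 117.9, 122.0, 120.4, 120.3 and 124.7 CPM, all above the highest control, and it rose by 0.44 on the log2 scale (SE 0.05, adjusted p = 2.1e-06).

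Mrpl54, a mitochondria-specific protein (chromosome 10, 81264713 to 81266934, minus strand), ran from 82.9 to 93.9 CPM (median 90.05) in the control. It stood at 115.2, 119.2, 117.2, 123.8 and 116.8 CPM in Drp1, with no overlap, and rose by 0.41 (SE 0.053, adjusted p = 7.8e-06). Mrpl34 (chromosome 8, 71464959 to 71465747, plus strand), a short basic protein buried in ribosomal RNA, ran from 102.3 to 112.8 CPM (median 109.2) and stood at 123.0, 127.8, 143.2, 133.3 and 127.2 CPM. It rose by 0.27 (SE 0.055, adjusted p = 0.00057), again without overlap.

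Mrpl11, at the base of the stalk beside Mrpl12, ran from 46.7 to 51.8 CPM (median 48.6) in the control. The Drp1 libraries held 54.9, 57.3, 60.0, 63.25 and 54.9 CPM, and it rose by 0.24 (SE 0.059, adjusted p = 0.0021) without overlap. Mrpl57, a mitochondria-specific protein, ran from 45.7 to 55.8 CPM (median 51.1) and stood at 62.9, 55.8, 62.5, 60.9 and 62.2 CPM, a rise of 0.26 (SE 0.064, adjusted p = 0.0027). Its Drp1 replicate 2 met the highest control. The other 3 that rose were Mrpl36, Mrpl20 and Mrpl50, by 0.30, 0.23 and 0.51, each with overlapping groups.

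**Figure D3:**
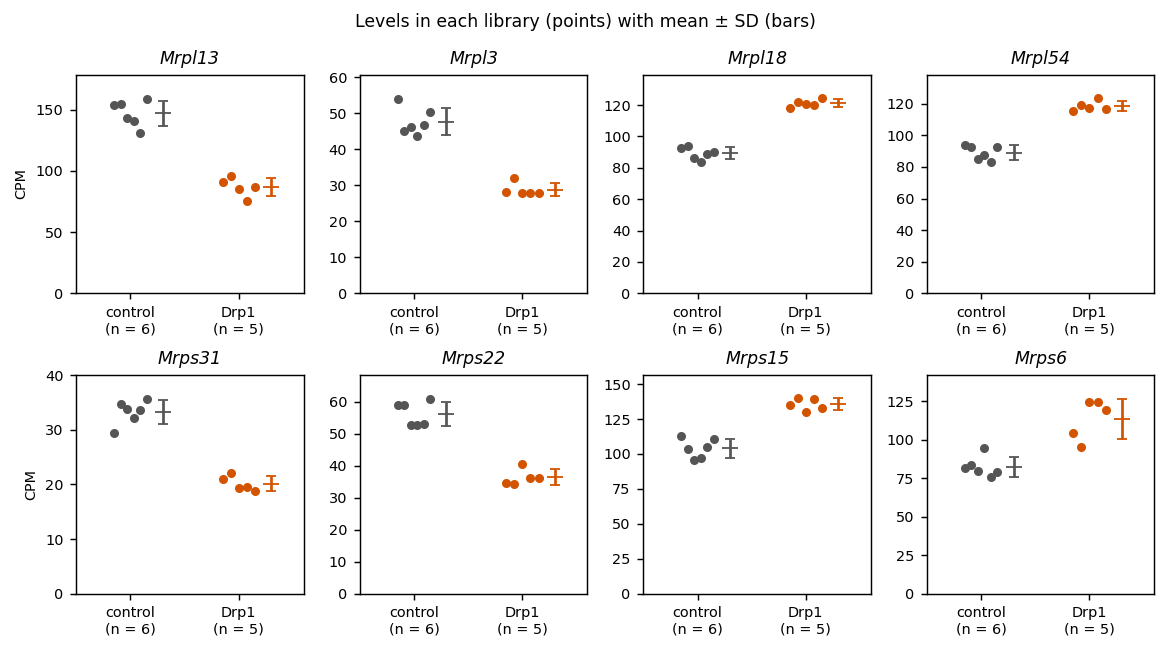
Level (CPM, linear axis from 0) of 8 members in each library, control in grey (n = 6) and Drp1 in orange (n = 5); points are libraries and bars give mean ± SD. Mrpl13, Mrpl3, Mrps31 and Mrps22 lie lower in every Drp1 library, and Mrpl18, Mrpl54, Mrps15 and Mrps6 higher.

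In the small subunit, Mrps31 had the lowest log2 fold change. Its protein is a mitochondria-specific part of the head, the domain that swivels during translocation, and the gene lies on chromosome 8, 22411361 to 22429665, plus strand. Control libraries ran from 29.5 to 35.6 CPM with a median of 33.7. The Drp1 libraries held 21.0, 22.0, 19.3, 19.5 and 18.8 CPM, all below the control, and it fell by 0.73 (SE 0.073, adjusted p = 5.6e-07).

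Mrps22 (chromosome 9, 98588730 to 98601660, minus strand) encodes a mitochondria-specific protein known from inherited disease with failing mitochondrial translation. It ran from 52.65 to 60.9 CPM (median 56.0) in the control and stood at 34.6, 34.4, 40.6, 36.1 and 36.2 CPM in Drp1. The groups lay apart, and it fell by 0.63 (SE 0.068, adjusted p = 1.3e-06).

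Mrps23 and Mrps25 are also mitochondria-specific. Mrps23 ran from 105.1 to 137.4 CPM (median 116.9) in the control, against 78.1, 75.4, 83.5, 79.9 and 80.2 CPM in Drp1, and fell by 0.57 (SE 0.07, adjusted p = 4.6e-06). Mrps25 ran from 51.0 to 60.3 CPM (median 56.1), against 39.9, 37.4, 32.1, 35.9 and 42.6 CPM, and fell by 0.58 (SE 0.077, adjusted p = 1e-05). Neither overlapped, though an exon of Nr2c2 lies on the opposite strand at the 3' end of Mrps25 and its reads cannot be told apart from that gene's.

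Mrps24, a bacterial-type protein at the channel where messenger enters, ran from 55.7 to 61.0 CPM (median 58.25) in the control. It stood at 40.1, 44.1, 46.6, 46.8 and 46.7 CPM in Drp1 without overlap, and fell by 0.39 (SE 0.06, adjusted p = 4.5e-05). Mrps5, of the same channel, fell by 0.23, and Mrps2, a bacterial-type protein, fell by 0.50. The other small subunit genes that fell were Mrps26, Mrps9, Mrps34, Mrps30, Mrps18a and Mrps16, with log2 fold changes from -0.44 to -0.23.

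Mrps15, a bacterial-type protein of the platform, the side of the small subunit that helps hold messenger and bind the large subunit, had the smallest adjusted p of the small subunit genes that rose. It ran from 95.7 to 112.9 CPM (median 104.3) in the control and stood at 135.3, 140.2, 130.4, 139.3 and 133.2 CPM in Drp1, with no overlap. It rose by 0.38 (SE 0.057, adjusted p = 3.3e-05). Its platform neighbour Mrps6 ran from 75.55 to 95.0 CPM (median 80.5) and stood at 104.4, 95.35, 124.8, 124.5 and 119.1 CPM. Mrps6 rose by 0.46 (SE 0.081, adjusted p = 0.00015), with Drp1 replicate 2 barely above the highest control.

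Mrps11, also of the platform, ran from 9.28 to 14.3 CPM (median 12.9) in the control and stood at 18.2, 22.5, 18.4, 15.3 and 14.4 CPM in Drp1. It rose by 0.49 (SE 0.132, adjusted p = 0.0044) with groups that nearly touch. Mrps21, the last platform protein to rise, ran from 2.93 to 13.9 CPM (median 6.69), against 15.2, 26.7, 19.3, 10.8 and 7.80 CPM, overlapping. Its log2 fold change was 1.03 (SE 0.383, adjusted p = 0.031), and that call was lost without any 1 of control replicates 2, 3 and 6 or Drp1 replicates 2 and 3 (adjusted p 0.054 to 0.097).

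Mrps12, a protein of the decoding centre where codon and anticodon meet, ran from 54.3 to 64.0 CPM (median 58.8) in the control and stood at 69.3, 59.2, 64.3, 70.9 and 72.1 CPM in Drp1, overlapping. It rose by 0.18 (SE 0.067, adjusted p = 0.026), a call lost without any 1 of control replicates 1, 3 and 5 or Drp1 replicates 1, 4 and 5 (adjusted p 0.056 to 0.081). Mrps14, of the head, rose by 0.53 with overlapping groups (SE 0.203, adjusted p = 0.033), and that call was lost without any 1 of control replicates 2, 3, 4 and 6 or Drp1 replicates 2 and 3 (adjusted p 0.052 to 0.10).

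A few symbols name a protein whose place differs from its label. Mrps18a and Mrps30 are built into the large subunit, and Mrps36 is now known as a component of the oxoglutarate dehydrogenase complex. Mrps30 ran from 54.1 to 60.5 CPM (median 57.25) in the control and stood at 49.5, 50.1, 45.1, 45.5 and 46.4 CPM in Drp1, without overlap, a fall of 0.28 (log2 fold change -0.28, SE 0.059, adjusted p = 0.00081). Mrps36 was scarce, with 64 and 83 counts in all control and Drp1 libraries, and ran from 0.31 to 0.718 CPM (median 0.628) in the control. The Drp1 libraries held 0.754, 1.16, 1.08, 1.18 and 0.524 CPM, overlapping. Its log2 fold change was 0.67 (SE 0.275, adjusted p = 0.045), a call lost without any 1 of control replicates 2, 3, 5 and 6 or Drp1 replicates 2, 3 and 4 (adjusted p 0.051 to 0.12). Nor was it made with DESeq2, with limma-voom, without the filter on low counts, or without control replicate 1 and Drp1 replicate 2 together (adjusted p 0.078, 0.063, 0.054 and 0.09).

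The 3 Mrps18 paralogs, which share an ancestor with 1 bacterial protein, differed in level and in result. Mrps18a ran from 28.5 to 35.0 CPM (median 30.7) in the control and stood at 27.03, 22.1, 24.9, 25.4 and 30.8 CPM in Drp1, overlapping, and fell by 0.26 (SE 0.089, adjusted p = 0.018). That call was not made with library totals alone or with upper-quartile factors (adjusted p 0.088 and 0.092). Mrps18c, of the platform, ran from 39.45 to 58.0 CPM (median 48.4), against 52.1, 72.15, 54.2, 41.7 and 47.9 CPM, and did not pass (log2 fold change 0.12, SE 0.13, adjusted p = 0.45). Without Drp1 replicate 2 its log2 fold change was -0.02. Mrps18b had 51 and 54 counts in all and ran from 0.191 to 0.722 CPM (median 0.461), against 0.29, 0.541, 0.258, 0.754 and 1.222 CPM. It did not pass (log2 fold change 0.39, adjusted p = 0.44), and without Drp1 replicate 5 its value was -0.01. Differences between the paralogs' responses were not tested.

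Mrps28 had the highest log2 fold change of any member and did not pass (1.17, SE 0.615, adjusted p = 0.11). It rested on 81 and 138 counts, and Drp1 replicate 2 alone stood at 5.96 CPM against a control mean of 0.767 ± 0.243 CPM.

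In each subunit more genes fell than rose. Of the 47 large subunit genes tested 22 fell and 8 rose (46.8% and 17.0%), and of the 29 small subunit genes 13 fell and 7 rose (44.8% and 24.1%), beside 33.3% and 33.9% of all genes. Median log2 fold changes were -0.16 for large and -0.23 for small. Placing the proteins by where they sit rather than by symbol gave 24 lower and 8 higher of 49 for the large subunit and 11 lower and 6 higher of 26 for the small, both with medians of -0.16. The difference between subunits was not tested, and the count of small subunit genes that rose went down to 3 without control replicate 3 and to 4 without any 1 of control replicates 2 and 6 or Drp1 replicates 2 and 3.

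Members were also grouped by ancestry and position in the ribosome. These groups were written down after the values had been seen, so the counts are descriptions. Mrps18a and Mrps18b were counted as mitochondria-specific, though they share an ancestor with a bacterial protein. Of 45 tested proteins with a bacterial counterpart 17 fell and 11 rose (median -0.07), and of 30 mitochondria-specific proteins 18 fell and 3 rose (median -0.21). In the small subunit the 10 mitochondria-specific genes held 6 that fell and none that rose (median -0.39), and the 16 bacterial-type genes 5 that fell and 6 that rose (median 0.11). In the large subunit both classes held 12 that fell, of 20 mitochondria-specific genes (median -0.17) and 29 bacterial-type genes (median -0.08).

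By region, the platform genes Mrps6, Mrps11, Mrps15 and Mrps21 rose and none of its 5 members fell (median 0.46). At the messenger entry and decoding sites Mrps5 and Mrps24 fell and Mrps12 rose (median -0.23). The head held 2 that fell and 1 that rose of 7 (median -0.25). In the large subunit, the central protuberance held 4 that fell and 1 that rose of 7 (median -0.17), and the rim of the exit tunnel 2 that fell and none that rose of 5 tested (median -0.03). Of the 3 stalk proteins Mrpl12 fell, Mrpl11 rose and Mrpl10 did not pass (0.23, SE 0.142, adjusted p = 0.16). The counts by region stand beside 33.3% lower and 33.9% higher of all genes, and were not tested against them.

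Coding length was not among the planned results, so the counts and correlations on it are descriptions. Among the members, 14 of the 15 that rose had a coding sequence at or below the median length. Of the 38 members with up to 594 coding bases, the median of the members, 14 rose and 10 fell (median log2 fold change 0.01). Of the 38 longer members 1 rose and 25 fell (median -0.28). The 1 was Mrps15, with 774 bases. Beside these counts, 33.9% of all genes tested were higher and 33.3% lower. With 1 library left out, the shorter members that rose numbered 10 to 15. Median coding length was 405 bases in those that rose, 654 in those that fell and 562.5 in those that did not pass. Over all genes the same medians were 1446, 1362 and 1392 bases.

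Across the 76 members, Spearman's rho between coding length and log2 fold change was -0.47, and it was -0.47 as well over the 72 members with 10 CPM or more. Pearson's r on log2 coding length was -0.46. These are descriptions across genes of the same libraries, and genes are not independent replicates. Among all 11843 coding genes tested rho was 0.02, and among the 5497 others with coding sequences no longer than the longest member (1326 bases) it was -0.02. With whole transcript length, the members' rho was -0.30. In each of the alternative fits rho for coding length lay between -0.49 and -0.45. For the fits that change only the scaling this was fixed in advance, since all genes shift nearly alike. With library totals alone or upper-quartile factors 3 longer members rose instead of 1. Short members were not all higher. Mrpl33, with the shortest coding sequence (195 bases), did not pass at 0.02, and Mrpl52, with 363 bases, fell.

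**Figure D4:**
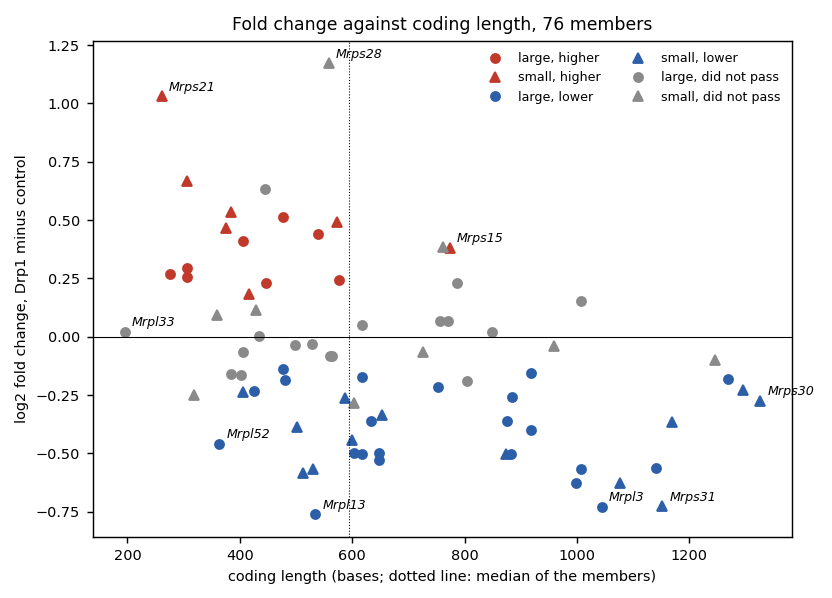
Log2 fold change (Drp1 minus control) of the 76 tested members against coding length in bases; circles are large and triangles small subunit symbols, colours give the call, and the dotted line marks the median of 594 bases. Right of the line 25 members fell and only Mrps15 rose, while left of it 14 rose and 10 fell. Of all genes tested, 33.9% were higher and 33.3% lower.

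Many of these genes start close to another gene on the opposite strand. A coding gene started within 1000 bases on the opposite strand for 33 members, and both genes were tested for 31. For 8 of these members both genes were called, 3 in the same direction and 5 in opposite directions. Of all genes tested, 67.1% were called. Mrpl13 fell beside Mtbp (-0.99), Mrpl43 beside Twnk, the mitochondrial DNA helicase (-0.67), and Mrps12 rose beside Sars2, the mitochondrial seryl-tRNA synthetase (0.40). Mrpl30 fell by 0.18 while Mitd1, which starts 66 bases away, rose by 1.07 (adjusted p = 2.8e-08). The call of Mrpl30 was not made with library totals alone or upper-quartile factors.

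Likewise Mrps34 fell by 0.34 and Eme2, starting 29 bases away, rose by 1.00, and Mrpl44 fell by 0.63 and Wdfy1, at 125 bases, rose by 0.64. Mrpl36 rose by 0.30 while Ndufs6, a complex I subunit that starts 29 bases away, fell by 0.25. Mrpl21 fell by 0.50 while Ighmbp2, at 116 bases, rose by 0.26. Of the rest, the member alone passed in 10, the partner alone in 6 and neither in 7, with Mrps11 and Mrpl46 entered once from each side. Mrps11 and Mrpl46, members that start 412 bases apart on opposite strands, had log2 fold changes of 0.49 and 0.02 (adjusted p = 0.83 for Mrpl46).

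QuantSeq reads fall near the 3' end, where another gene can add counts. For 10 members an exon of another gene lies within the last 500 bases, and of these 5 fell and none rose. The other 66 tested members held 30 that fell and 15 that rose. Members on chromosome 8 were set beside their nearest 20 tested genes. Around Mrpl34 9 neighbours rose and 4 fell (median 0.27), and around Mrps31 4 rose and 4 fell (median -0.07). Both sets of counts stand beside 33.3% lower and 33.9% higher of all genes, and were not tested against them.

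The proteins assemble on a pair of ribosomal RNAs read from mitochondrial DNA. mt-Rnr1, the small ribosomal RNA, stood at 7810 ± 1987 CPM in the control and 8047 ± 2812 CPM in the Drp1 libraries, and mt-Rnr2, the large one, at 16220 ± 3447 and 16540 ± 3120 CPM. Neither passed (log2 fold changes 0.04 and 0.03, adjusted p = 0.89 and 0.88). QuantSeq primes on poly(A), and how far these counts track ribosome number was not tested.

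Mitochondrial ribosomal proteins with other symbols were described from a list of 5, of which 3 fell and none rose. Over all genes tested 33.3% were lower and 33.9% higher. Gadd45gip1, a large subunit protein, fell by 1.18 (64.8 ± 3.6 to 28.55 ± 2.59 CPM, adjusted p = 2e-09), more than any of the 76 members. Of the 20 tested genes nearest to it on chromosome 8, 18 fell and 1 rose (median -1.08). Aurkaip1 and Ptcd3, both of the small subunit, fell by 0.56 and 0.99. Dap3, a GTP-binding protein of the head, and Chchd1 had values of 0.10 and 0.04 and did not pass.

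Of 29 factors that assemble the ribosome or modify its RNA, 11 fell and 5 rose (median -0.23). The counts of this list and the next stand beside 33.3% lower and 33.9% higher of all genes, and were not tested against them. Trmt61b, which methylates mitochondrial RNA, rose by 1.30 (3.09 ± 0.391 to 7.61 ± 0.536 CPM). Trub2, a pseudouridine synthase family member, fell by 0.81, and Ybey, an endoribonuclease, fell by 1.06. Of 12 tested translation factors 6 fell and 1 rose (median -0.21). Gfm2, which splits ribosomes for recycling, fell by 1.38 (35.6 ± 3.51 to 13.6 ± 2.86 CPM). Guf1, a ribosome-bound GTPase, rose by 0.45, and Tufm, the elongation factor that delivers aminoacyl-tRNA, fell by 0.42.

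Of 16 tested genes for mitochondrial transcription and messenger maturation, 10 fell and none rose (median -0.52), beside 33.3% lower and 33.9% higher of all genes. Supv3l1, a helicase of RNA decay, fell by 0.65. Tfam, which packs mitochondrial DNA and starts its transcription, fell by 0.55. Trmt10c, a subunit of the tRNA-cutting RNase P, fell by 0.92. Against these, the members' median of -0.16 was the nearest to 0 of the protein lists described. The lists were of unequal size and their differences were not tested.

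Spread between libraries of a group was mostly small, with a median coefficient of variation over the members of 7.05% in the control and 7.51% in the Drp1 libraries. In the 10 members with the widest spread (Mrps21, Mrpl27, Mrpl39, Mrpl44, Mrps14, Mrpl50, Mrps33, Mrpl10, Mrps18c and Mrps11) the same libraries tended to stand at the ends. Control replicate 1 was highest of its group in 7 and control replicate 4 lowest in 9. Drp1 replicate 2 was highest in 9 and Drp1 replicate 5 lowest in 7. The share of counts on the mitochondrial ribosomal RNAs was lowest in control replicate 1 (1.47%), and it was 1.84% in Drp1 replicate 2 and 3.18% in Drp1 replicate 5. It was 2.8% in control replicate 4. The highest control share was in control replicate 5 (2.85%), which was the lowest control library for none of the 10 members. The part of this share in the spread was not tested. Without control replicate 1 and Drp1 replicate 2 together, a choice made after seeing the data, 14 members rose and 36 fell.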

How the data were processed

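Per the labels, 11 libraries of 3' tags from C2C12 cells were made with the QuantSeq kit. Reads were forward reads of 50 bases in the sample labels and 75 bases in the series text. Per the series text, BlueBee software handled alignment. DESeq2 1.22.2 and the build GRCm38 (mm10) are listed in the submitters' processing notes. Which aligner, counter, strand setting and annotation were used is not given in the sources used here. Raw counts were deposited per gene by the authors, and the deposited normalised values, a signal, equal those counts divided by 1 size factor for each library. Only the counts were used. Identifiers were matched to GENCODE vM21 (15080 matched, 33 did not).

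Genes were kept by filterByExpr (13025), scaled by trimmed means of M values and tested with edgeR 4.0.16 (robust quasi-likelihood, R 4.3.3), with Benjamini-Hochberg adjustment over all genes tested and a threshold of 0.05, on all 6 control and 5 Drp1 libraries. The script was tested on simulated data. Alternatives were DESeq2 1.42.0, limma 3.58.1 (voom), other scalings, other filters, a replicate block and leaving out each library. Library pairs of a group differed beyond sampling noise (chi-square per degree of freedom 5.30 to 61.6), so all counted as separate. Library values (each Drp1 library; lowest, median and highest control) are given for the 5 members with the smallest adjusted p in each direction and subunit, the Mrps18 paralogs, Mrps30, Mrps36 and members on chromosome 8. From each other list the 3 genes with the smallest adjusted p are named, and further names were chosen after their values were seen. Members and lists were chosen with earlier results of these data known.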

Additional observations from a re-analysis of the deposited data

Results flagged for a closer look

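Single libraries stood apart from the rest of their group in 3 of 54 groups of library values checked with Dixon's ratio, where chance gives about 1 in 20. Mrpl3 stood at 31.94 CPM in Drp1 replicate 2, against 27.86 to 28.13 CPM in the other Drp1 libraries. Mrps22 stood at 40.63 CPM in Drp1 replicate 3, against 34.41 to 36.18 CPM. Both values lay below the whole control range. Mrpl57 stood at 55.76 CPM in Drp1 replicate 2, against 60.94 to 62.93 CPM, and there it met the highest control library. All 3 genes were called in the same direction with any 1 library left out.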

How the results depend on the processing

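Over 21 fits (the one reported and 20 alternatives), 11 of the 15 members that rose, 26 of the 35 that fell and 15 of the 26 that did not pass kept the same call, and no call turned round. With library totals alone the median log2 fold change was -0.058 for all members, -0.057 for the large and -0.13 for the small subunit, and 14 large subunit genes fell instead of 22. With upper-quartile factors the medians were -0.073, -0.071 and -0.14. By their construction these scalings move all genes up together. The small subunit genes that rose numbered 4 with a replicate block and 3 at an adjusted p of 0.01, and 3 to 7 with 1 library left out. Their median was -0.16 by place in the ribosome, -0.16 without the members on chromosome 8, and -0.25 to -0.16 with 1 library left out. With 1 library left out Mrps18c ranged from -0.022 to 0.195 and Mrps18b from -0.011 to 0.596; both turned below 0 there, and the cause was not tested.

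The labels do not say whether replicate numbers pair the libraries. Correlations of same-numbered deviations ran from -0.18 to 0.36. They cannot decide the question, as correlations of differently numbered libraries were not set beside them. With the number as a block, 12 members rose and 27 fell of 75 tested.

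Groups of 6 and 5 libraries limit the precision. Mrps18b, Mrps28, Mrps36 and Mrpl23, all under 1 CPM on average in the control, rest on too few counts for small differences to be detectable at this depth.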
